A study of Homo sapiens with 47 samples.

Results

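The 10 genes described here belong to the BCL2 family, which sets the threshold for the mitochondrial pathway of apoptosis. They were chosen by name among the 25739 genes measured in single circulating tumor cells (CTC) and cultured cells of the breast cancer line LM2. BCL2, BCL2L1 (BCL-XL), MCL1 and BCL2A1 (BFL1) are the antiapoptotic members, BAX and BAK1 are the effectors, and BID, BCL2L11 (BIM), BBC3 (PUMA) and PMAIP1 (NOXA) are BH3-only members. All 10 had a row of their own in the table, and each was found in at least 1 cell.

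LM2, or MDA-MB-231-LM2, is an established human triple-negative breast cancer line that spreads readily to the lung. The CTCs were GFP-labeled LM2 cells that had entered the blood after implantation of the line into the mammary fat pad of young adult NSG mice, which lack functional T, B and NK cells. They were enriched by size, stained for CD45 as a negative marker, and picked 1 at a time by their GFP signal. Each cell gave 1 SMARTseq2 library, in which full-length cDNA is amplified and molecules carry no identifiers. Analyzed here were 37 CTCs, of which 2 came from mouse 5541, 4 from mouse 5542, 10 from mouse 5545, 17 from mouse 5546 and 4 from mouse 5549. The other group was 6 LM2 cells from tissue culture, without a mouse or any treatment. No sample was treated, and the labels name no batch that sets libraries apart. The authors chose the number of amplification cycles for each set of cells. The mouse is the replicate of the CTCs, whereas the 6 cultured cells are taken as 1 culture with no replicate. Values are therefore described without a test, and models that borrow the spread of the mice for the culture are given only as an alternative. The labels do not say whether cells LM-P3 and LM-P4, which carry a letter in their numbers, came from another culture. They held reads of the most genes of the cultured cells, 13679 and 12792. Growth in a mouse, passage through blood, capture and handling all separate the CTCs from the culture and cannot be told apart.

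In healthy cells the antiapoptotic proteins hold BAX and BAK1 in check. BH3-only proteins, made or activated under stress, bind the antiapoptotic proteins through a short helix called the BH3 domain, and some of them also activate BAX and BAK1, which then perforate the outer mitochondrial membrane. Anoikis is the form of this death that follows loss of attachment to the matrix, a state in which every CTC finds itself, and BIM is among its best known triggers in breast epithelial cells.

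The stretch of each coding sequence that holds the center of the BH3 domain is shown because it is the feature that joins these otherwise dissimilar genes. The stretches were read in frame from the GENCODE 44 canonical transcripts on GRCh38, 5′ to 3′ on the coding strand. Capitals mark the codon of the conserved leucine, and then, after 3 unmarked codons, a glycine or alanine codon followed by an aspartate codon.
BCL2, chr18:63318352-63318387, minus strand: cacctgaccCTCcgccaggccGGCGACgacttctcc
BCL2L1, chr20:31721925-31721960, minus strand: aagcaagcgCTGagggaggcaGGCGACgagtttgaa
MCL1, chr1:150578868-150578903, minus strand: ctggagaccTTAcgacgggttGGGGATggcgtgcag
BAX, chr19:48955778-48955813, plus strand: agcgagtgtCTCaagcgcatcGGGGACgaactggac
BAK1, chr6:33575390-33575425, minus strand: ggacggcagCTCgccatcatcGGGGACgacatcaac
BID, chr22:17739418-17739453, minus strand: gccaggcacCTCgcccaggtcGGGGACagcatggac
BCL2L11, chr2:111150094-111150129, plus strand: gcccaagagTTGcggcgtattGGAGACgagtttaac
BBC3, chr19:47226582-47226617, minus strand: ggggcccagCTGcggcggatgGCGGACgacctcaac
PMAIP1, chr18:59902664-59902699, plus strand: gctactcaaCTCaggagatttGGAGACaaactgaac

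The pattern searched was a leucine codon (CTN, TTA or TTG), any 3 codons, GGN or GCN, and GAC or GAT, in frame on the coding strand only. It occurred exactly once in 9 of the 10 members and not at all in BCL2A1, which says only that these letters are not in its 175 codons. BBC3 was the member with an alanine codon in place of the glycine codon. Each of the 9 stretches lay within 1 coding exon. The same pattern was found in 4923 of 20046 canonical coding sequences (24.6%), so it is loose on its own and describes the members without defining them.

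Values are normalized counts, the reads on a gene divided by a size factor for each cell, and a gene is called detected in a cell when its value is above 0. Depth was 469614 to 2041333 reads on genes per CTC and 776949 to 1186197 per cultured cell. CTCs held reads of 2313 to 12299 genes (median, 7569) and cultured cells of 7369 to 13679 (median, 10190). In mouse 5546 the 8 libraries with the letter s in their names held 4656 to 7538 genes and the 9 with the letter c 7782 to 12299, and the letters are not explained in the sources used here. CTC 5545-6 stood apart with 2313 genes and no read of any of the 10 members, although it had 1049915 reads and normalized counts of 7276 for VIM and 20715 for GAPDH. No read at that depth allows up to 2.86 RPM (reads scaled to a total of 1000000 reads on genes) for a gene, a limit that covers counting error only. All CTCs expressed VIM, at 2893 to 20688 normalized counts against 4205 to 7232 in culture, while of the other mesenchymal markers FN1 was detected in 32 CTCs, CDH2 in 1 and SPARC in 35. As the mean of mouse means SPARC was at 189 normalized counts against 386 in culture, below it in all 5 mice. Epithelial markers summed to 333 to 6835 and 2139 to 3188. Markers of blood cells, summed per list, were at 0 to 15571 (erythroid), 0 to 573 (neutrophil), 0 to 2204 (leukocyte) and 0 to 77.3 (platelet) in CTCs, and at 0, 0, 0 to 700.3 and 0 to 3.23 in cultured cells.

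MCL1, BCL2L1, PMAIP1 and BID were the members found in nearly every CTC. MCL1 was detected in 36 of 37 CTCs (97.3%, exact 95% binomial interval 85.8 to 99.9), BCL2L1 and PMAIP1 each in 35 (94.6%, 81.8 to 99.3), and BID in 33 (89.2%, 74.6 to 97.0). The effectors came next, BAX in 25 CTCs (67.6%, 50.2 to 82.0) and BAK1 in 23 (62.2%, 44.8 to 77.5). BCL2L11 was detected in 14 CTCs (37.8%, 22.5 to 55.2), BBC3 in 11 (29.7%, 15.9 to 47.0), BCL2A1 in 4 (10.8%, 3.03 to 25.4) and BCL2 in 1 (interval, 0.0684 to 14.2%). These intervals cover counting error only, because PCR copies are not separate molecules and CTCs share a mouse. Among the 6 cultured cells BCL2L1, MCL1, BAX, BAK1, BID and PMAIP1 were detected in all 6, BCL2L11 in 3, BCL2A1 in 2, BCL2 in 1 and BBC3 in 0. A higher bar of 8 normalized counts left 34 CTCs with BCL2L1, 32 with PMAIP1, 29 with MCL1 and 28 with BID, but 17 with BAK1 and 12 with BAX.

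**Figure D1:**
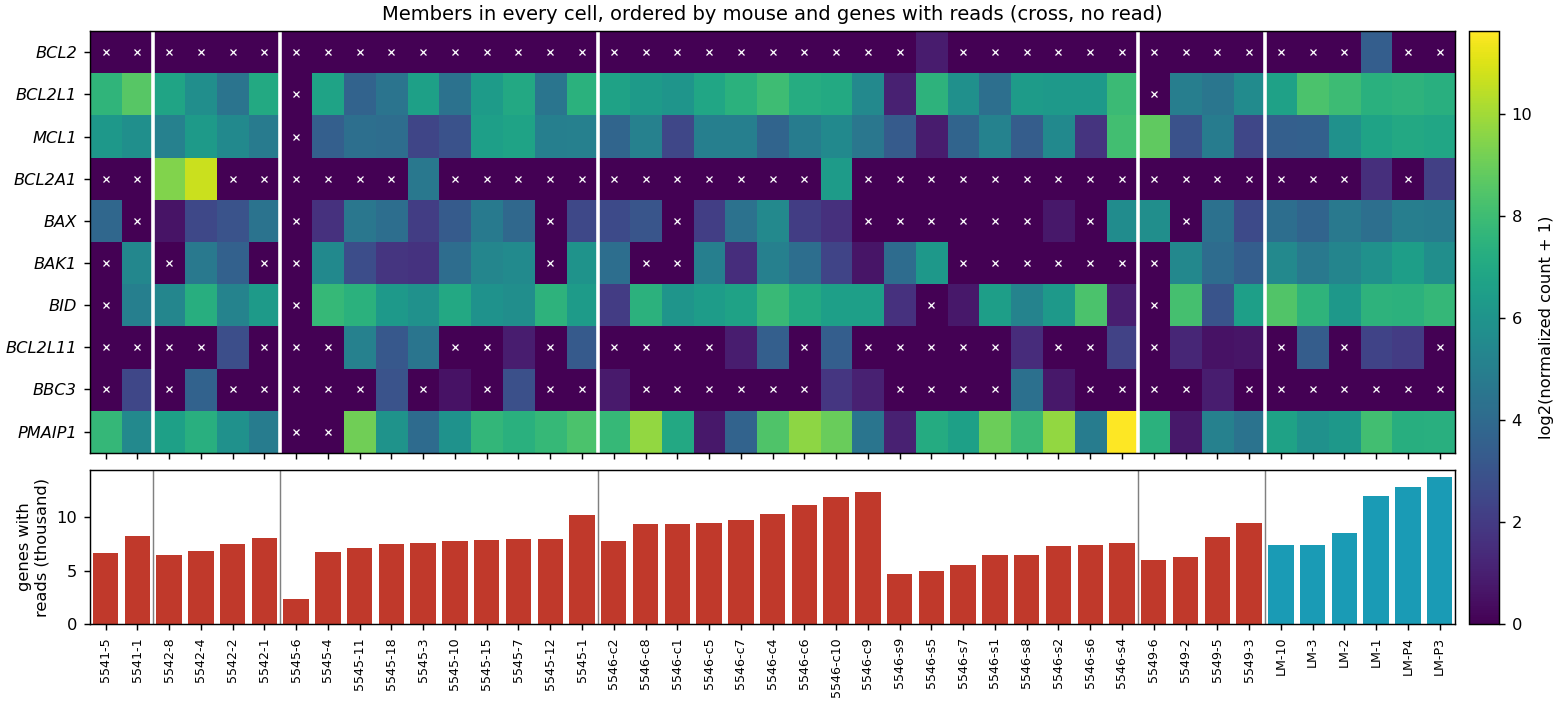
Each column is 1 cell, ordered by mouse, library letter and number of genes with reads, and each row is 1 member, with color for log2(normalized count + 1) and a cross where the cell had no read. Bars below give the genes with reads of each cell (red, CTCs; blue, culture). The rows of BCL2L1, MCL1, BID and PMAIP1 are filled in most cells, those of BCL2, BCL2A1, BCL2L11 and BBC3 are mostly empty, and CTC 5545-6 is empty throughout.

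Levels of different genes were compared per length, as normalized counts per kb of the union of annotated exons. As means of the 5 mouse means, PMAIP1 stood at 81.6 ± 74.6 (SD, n = 5 mice), BCL2L1 at 26.9 ± 24.4, BID at 17.2 ± 8.00, MCL1 at 9.44 ± 5.66, BAK1 at 7.15 ± 2.49 and BAX at 4.01 ± 1.898 normalized counts per kb. BBC3 at 0.510 ± 0.318, BCL2L11 at 0.327 ± 0.439 and BCL2 at 0.000765 ± 0.00171 were near the floor. BCL2A1 had the highest mean, 119 ± 262, with the mouse means running from 0 to 588. That rank came from mouse 5542 alone, and without this mouse PMAIP1 was first at 92.2 normalized counts per kb.

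The order held between some neighbors and not others. PMAIP1 lay above BCL2L1 in 4 of 5 mice, BCL2L1 above BID in 3, BID above MCL1 in 4, MCL1 above BAK1 in 4, and BAK1 above BAX and BAX above BBC3 in all 5. The order of BAK1 and BAX depended on the length used. Per kb of the canonical transcript, BAX was at 13.1 and BAK1 at 7.29 normalized counts in CTCs, as means of the mouse means. PMAIP1 was the highest member per kb in 22 of 37 CTCs and in 3 of 5 mice, followed by BID in 6 CTCs, BCL2L1 in 4 and BCL2A1 in 3. In culture the order was PMAIP1 at 62.8, BCL2L1 at 46.5, BID at 44.3, BAK1 at 22.9, MCL1 at 11.5 and BAX at 8.48 normalized counts per kb. MCL1 and BAK1 thus changed places between culture and CTCs, at 9.44 ± 5.66 and 7.15 ± 2.49 in CTCs. MCL1 exceeded BAK1 in 4 mice and not in the fifth. In mice 5549 and 5546 the MCL1 mean included CTCs 5549-6 and 5546-s4, at 433 and 269 normalized counts. The order without these cells was not tested.

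**Figure D2:**
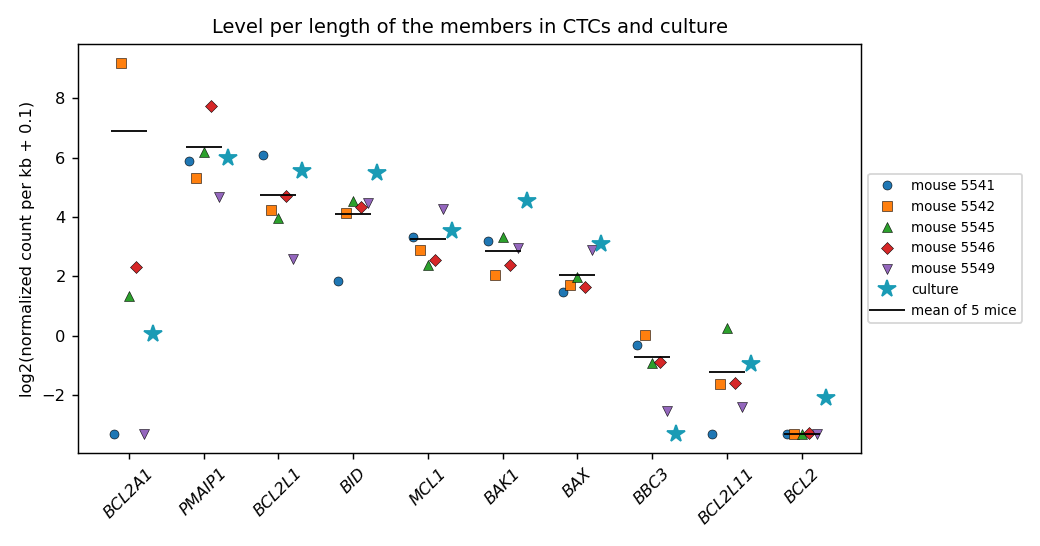
Level per length of each member, as log2(normalized count per kb + 0.1), with 1 symbol per mouse (mean of its CTCs), a star for the mean of the 6 cultured cells and a bar for the mean of the 5 mice. PMAIP1, BCL2L1 and BID lead in most mice, and BCL2A1 is high in mouse 5542 and low or at 0 in the other 4.

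Against the culture, none of the 10 members met the rule of size used here, which asks that the mean of each of the 5 mice differ at least 4-fold in 1 direction from the culture mean, with 1 added to both and the larger mean at least 8. Of 9164 genes with a larger mean of at least 8, the rule took 487 as lower in CTCs (5.31%) and 6 as higher (0.0655%), and 7 of the 10 members were among those 9164. At 2-fold it took 1 member, BAK1, as lower, against 25.1% of all genes, and none as higher, against 0.262%. The mouse means of BAX, BAK1 and BID all lay below the culture mean, 3 of 7 members, against 60.3% of all genes, and no member tested had all of its mouse means above, against 1.04%. Each of these shares of the 7 members was at or below that of all genes.

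Most genes were lower in CTCs on this scale, and the members have to be read against that shift. The log2 ratio of CTC to culture, that is of the mean of mouse means over the culture mean with 1 added to both, had a median of -1.20 over all genes tested and of -0.78 over the 7 members. In RPM the median over all genes was -0.45, and in the model of edgeR on reads summed per mouse it was 0.31, with 0.61 over the members it tested. Signs of members therefore depend on the scaling, and both values are given below where they differ. edgeR with Benjamini-Hochberg adjustment, which has to take the spread of the mice for that of the culture, called 0 of 13813 genes (0%) in either direction, with 241 at an unadjusted p under 0.05 (1.74%), and DESeq2 on the same sums called 14 genes. No member was among the calls of either.

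**Figure D3:**
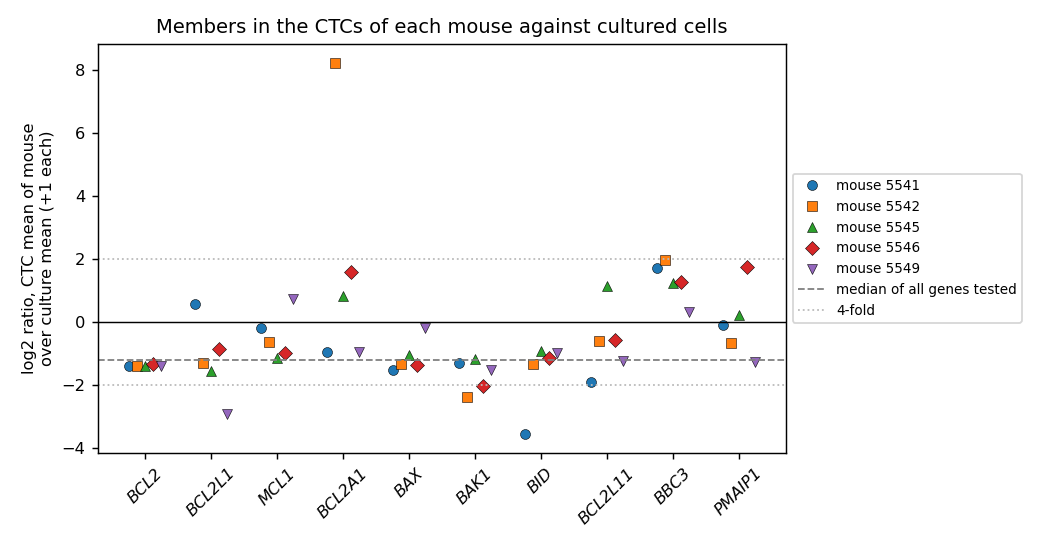
The log2 ratio of the mean of each mouse over the culture mean, with 1 added to both, for each member and mouse. The dashed line is the median of all genes tested, -1.20, and the dotted lines mark 4-fold. BAX, BAK1 and BID lie below 0 in all 5 mice on this scale (in edgeR they were at -0.01, -0.39 and 0.02), BCL2A1 is far above 0 in mouse 5542, and the symbols of BBC3 and BCL2 rest mainly on the added 1.

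Among the antiapoptotic members, BCL2L1 was detected in nearly all CTCs and varied by mouse. The gene lies on the minus strand of chr20:31664452-31723989. CTCs had 0 to 380 normalized counts of BCL2L1 (median, 79.2) and cultured cells 100 to 315 (median, 175). Among CTCs, both cells of mouse 5541 were high, at 380 and 196, and the 4 of mouse 5549 were low, at 47.1, 30.1, 22.3 and 0. Mice 5542, 5545 and 5546 lay between, with means of 78.8, 65.4 and 108. The mean of mouse means was 113 ± 102 (SD, n = 5 mice) against 195 in culture.

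BCL2L1 was below the lowest cultured cell in 22 of 37 CTCs and above the highest in 1. Its log2 ratio was -0.78 (SD of the mouse ratios, 1.26, n = 5), but 0.41 ± 1.08 (SE) in edgeR, so its direction turned with the scaling, and without mouse 5541 the ratio was -1.48 on the main scale and -0.32 in edgeR. Relative to the median of all genes it was 0.42 on the main scale, 0.09 in edgeR and -0.22 in DESeq2. Some of its exonic sequence overlaps ABALON, an antisense gene, and counting without strand cannot separate them.

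MCL1, a short-lived protein that is lost quickly when its synthesis stops, was present at modest levels in most CTCs and very high in 2. It lies on the minus strand of chr1:150560895-150579738. CTCs had 0 to 433 normalized counts (median, 28.3) and cultured cells 10.3 to 129 (median, 81.6), and the groups overlapped, with 10 CTCs below the lowest cultured cell and 2 above the highest. The culture itself split, with LM-10 and LM-3 at 10.3 and 10.9 and the other 4 cells at 57.7 to 129.

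The 2 highest CTCs for MCL1 were 5549-6 at 433 and 5546-s4 at 269. The other 3 CTCs of mouse 5549 had 28.3, 6.70 and 4.49, so that mouse 5549 had the highest mean, 118, through 1 cell. The log2 ratio was -0.28 (SD, 0.74, n = 5) and fell to -0.90 when the highest CTC was left out, whereas it was 0.35 in RPM and 0.61 ± 0.98 (SE) in edgeR. MCL1 exons overlap ADAMTSL4 and ADAMTSL4-AS1.

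Nearly all CTCs held both of these antiapoptotic transcripts. BCL2L1 and MCL1 were detected together in 35 of 37 CTCs (94.6%) and in 6 of 6 cultured cells. CTC 5545-6 had neither and CTC 5549-6 had MCL1 alone. Per kb BCL2L1 exceeded MCL1 in 31 of 37 CTCs, in 6 of 6 cultured cells and in the mean of 4 of 5 mice. Mouse 5549 was the exception in its mean, although 3 of its 4 CTCs had more BCL2L1 than MCL1.

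BCL2A1, an NF-κB target best known in blood cells, was absent from most CTCs and abundant in a pair of cells. The gene lies on the minus strand of chr15:79960892-79971196. CTC 5542-4 had 1653 normalized counts from 2420 reads and CTC 5542-8 had 688 from 1273 reads, whereas 5542-1 and 5542-2, from the same mouse, had 0. CTC 5546-c10 had 81.6 and 5545-3 had 24.3. The other 33 CTCs had no read, and in culture LM-P3 had 3 reads and LM-1 had 1.

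The log2 ratio of BCL2A1 was 5.96 (SD, 3.80, n = 5 mice), rested on 2 cells and dropped to 0.54 without mouse 5542. Because neutrophils and other leukocytes express BCL2A1, their markers are given beside it. In 5542-4 and 5542-8 PTPRC (CD45) was 0, CSF3R was 0.683 and 0, and the 5 neutrophil markers measured summed to 2.73 and 8.65, against 0 to 573 over all CTCs. The same 2 cells had VIM at 19142 and 15018 normalized counts. CTC 5546-c10 differed, with PTPRC at 5.23, CSF3R at 7.32 and S100A9 at 97.3. CD74 and the other 5 leukocyte markers measured summed to 26.6 in 5542-4 and 2204 in 5542-8, the highest of any CTC. The 2204 was CD74 alone. Cultured cells also expressed CD74, at 0 to 692 normalized counts with a mean of 242, and the source of the CD74 reads was not tested. Blood cells of the host are mouse cells, whereas reads were counted on human genes only. Hemoglobin beta transcripts were at 2051 and 1906 in the 2 cells, and the part of blood RNA in BCL2A1 was not tested.

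BCL2, the founding member of the family, was nearly undetected in LM2 cells under both conditions. It lies on the minus strand of chr18:63123346-63320128. A single CTC, 5546-s5, had 1 read and cultured cell LM-1 had 5 reads, and the other 41 cells had none. No fold is given at these counts.

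**Figure D4:**
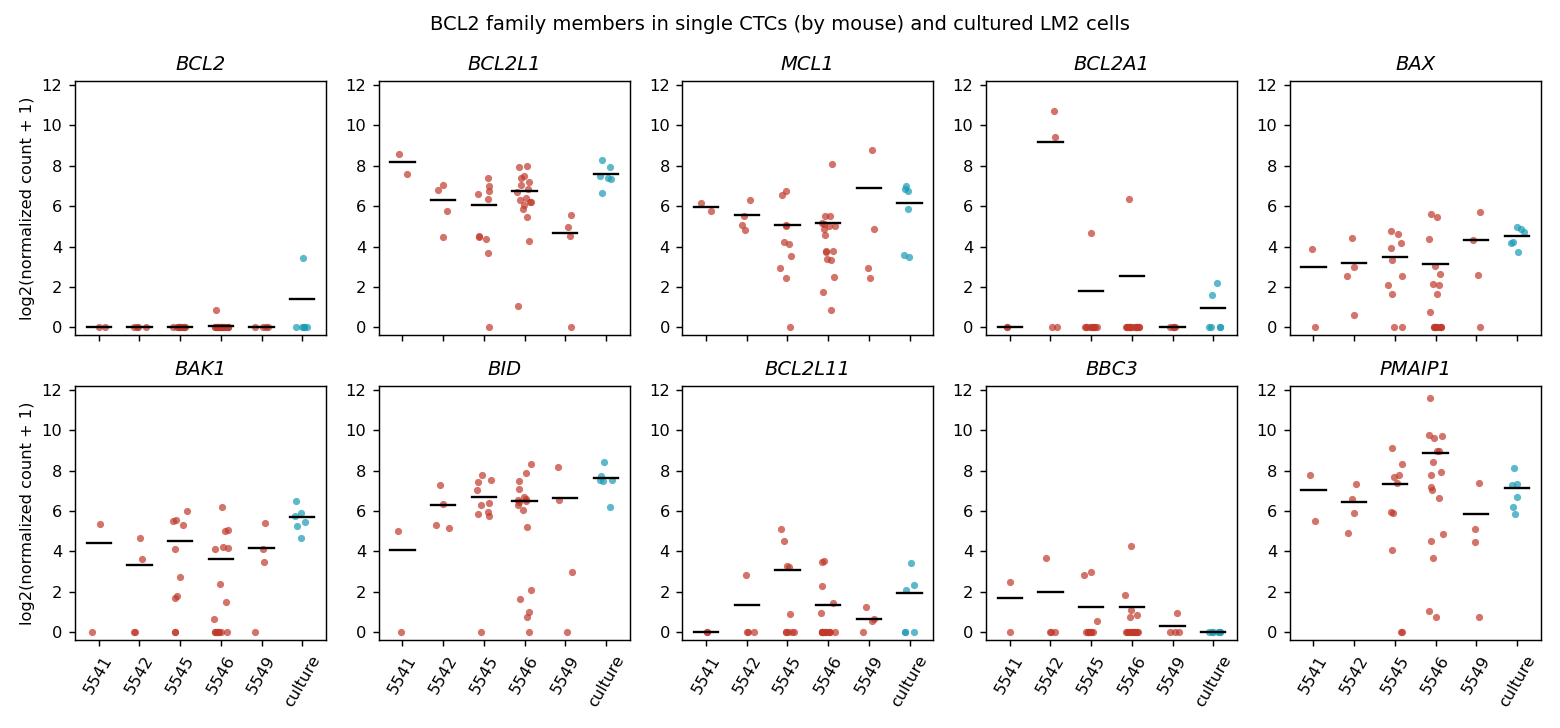
Each panel is 1 member, each point 1 cell and each bar the mean of a group, on log2(normalized count + 1), with CTCs by mouse in red and cultured cells in blue. MCL1 in 1 CTC of mouse 5549, BCL2A1 in 2 CTCs of mouse 5542 and PMAIP1 in 1 CTC of mouse 5546 stand far above the other cells of their groups.

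On the scale of normalized counts the means of both effectors, BAX and BAK1, lay below culture in every mouse, and some CTCs had reads of neither. BAX lies on the plus strand of chr19:48954815-48961798 and had 0 to 51.6 normalized counts in CTCs (median, 3.50) and 12.3 to 30.7 in culture (median, 21.5). It was below the lowest cultured cell in 26 of 37 CTCs and above the highest in 3. Mouse means of BAX were 6.94, 8.10, 10.0, 7.88 and 18.9 for mice 5541, 5542, 5545, 5546 and 5549, against 21.9 in culture.

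BAK1 lies on the minus strand of chr6:33572547-33580293 and had 0 to 73.0 normalized counts in CTCs (median, 4.18) and 24.6 to 88.8 in culture (median, 47.7). In 28 of 37 CTCs it was below the lowest cultured cell and in 0 above the highest. Its mouse means, in the same order, were 19.97, 8.92, 21.8, 11.4 and 17.0, against 50.7 in culture, and each was more than 2-fold lower. Over the 37 CTCs its Spearman correlation with the summed neutrophil markers was -0.45 (-0.30 without the s libraries). It is named as the extreme of the members detected in at least 23 CTCs, the others being at -0.15 to 0.22. The part of these markers in the level of BAK1 was not tested. BAK1 exons overlap GGNBP1, and its pseudogene BAK1P1 had 2 reads in all 43 cells.

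The log2 ratio of BAX was -1.01 (SD, 0.53, n = 5 mice) and that of BAK1 -1.62 (SD, 0.51). In edgeR they were -0.01 ± 1.45 and -0.39 ± 1.19 (SE). BAK1 was negative on every scale and in every alternative tried, and relative to the median of all genes it was -0.42, -0.51 and -0.71 on the main scale, in RPM and in edgeR. BAX relative to that median was 0.19, -0.03 and -0.32, so that no direction of its own can be given.

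Both effectors were detected in 18 of 37 CTCs (48.6%, exact 95% binomial interval 31.9 to 65.6), BAX alone in 7, BAK1 alone in 5 and neither in 7 (18.9%, 7.96 to 35.2). All 6 cultured cells held both. The CTCs with neither were 5545-6, 5545-12, 5546-c1, 5546-s1, 5546-s6, 5546-s7 and 5546-s8, and 6 of these 7 nevertheless had reads of BCL2L1 and MCL1. CTCs with both effectors had a median of 7863 genes with reads and the others 6609. In mouse 5546, both effectors were found in 6 of the 9 c libraries and in 0 of the 8 s libraries, and the part of library depth in genes was not tested.

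Among the BH3-only members, BID was widespread, with mouse means below culture in normalized counts but not in edgeR. BID, which caspase-8 cleaves to link death receptors to mitochondria, lies on the minus strand of chr22:17734138-17774770. CTCs had 0 to 315 normalized counts (median, 76.5) and cultured cells 72.8 to 347 (median, 184). In 17 of 37 CTCs BID was below the lowest cultured cell, and in 0 it was above the highest. The mouse means were 15.5, 76.7, 103, 88.5 and 97.0 for mice 5541, 5542, 5545, 5546 and 5549, against 196 in culture.

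BID varied widely between CTCs of mice 5549 and 5546. In mouse 5549 the 4 CTCs had 288, 93.1, 6.97 and 0, and in mouse 5546 the 12 highest had 35.8 to 315 and the other 5 had 0 to 3.19. All 4 CTCs of mouse 5542 had 35.1 to 153, and 9 of mouse 5545 had 53.1 to 221, next to CTC 5545-6 at 0. The log2 ratio was -1.35 (SD, 1.12, n = 5 mice) on the main scale and 0.02 ± 0.98 (SE) in edgeR, and relative to the median of all genes it was -0.15 and -0.30.

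PMAIP1, an inhibitor of MCL1 that the integrated stress response can induce, had the widest range of the members detected in most CTCs. It lies on the plus strand of chr18:59899996-59904305. CTCs had 0 to 3130 normalized counts (median, 129) and cultured cells 57.4 to 275 (median, 130), with 13 CTCs below and 9 above the range of the culture. Mouse 5546 held the 3130 of CTC 5546-s4 and 3 more cells at 790 to 853, next to cells at 1.08 and 0.700. The mouse means were 129, 85.8, 159, 461 and 55.8, against 137 in culture.

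The log2 ratio of PMAIP1 was 0.37 (SD, 1.14, n = 5 mice), 1.16 in RPM and 1.60 ± 1.18 (SE) in edgeR. Relative to the median of all genes these were 1.58, 1.60 and 1.28. Without mouse 5546 the ratio turned to -0.35, and without the highest CTC it was 0.08, so that its direction on the main scale rested on that mouse.

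BCL2L11 and BBC3, 2 BH3-only members that each bind all antiapoptotic partners, were rare and low. BCL2L11 lies on the plus strand of chr2:111119378-111168444. It had 0 to 33.7 normalized counts in CTCs and 0 to 9.57 in culture, with both medians at or near the floor, 0 and 1.61. Its 2 highest CTCs were in mouse 5545, at 33.7 and 22.0, followed by 5546-c4 and 5546-c10 at 10.3 and 9.94, and the mean of this mouse was 7.37 against 2.80 in culture, while the other 4 mouse means were 0 to 1.57. Its log2 ratio was -0.24 (SD, 1.14, n = 5 mice) on the main scale, 0.23 in RPM and 0.94 ± 2.87 (SE) in edgeR, so its direction turned with the scaling. Exons of BCL2L11 overlap MIR4435-2HG, a long noncoding gene.

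BBC3 lies on the minus strand of chr19:47220822-47232766. It had reads in 11 CTCs from all 5 mice, at 18.4 in 5546-s8, 11.6 in 5542-4, and 0.471 to 6.85 in the other 9, and no read in the 6 cultured cells. Its mean over mice was 1.78 RPM, and 3 reads over the whole culture would give 0.543 RPM, a limit that covers counting error only. Because BBC3 had reads in only 11 of 37 CTCs, its absence from 6 cells sets no lower bound on a fold, and none is given. BCL2L11 or BBC3 was detected in 20 of 37 CTCs (54.1%, exact 95% binomial interval 36.9 to 70.5) and in 3 of 6 cultured cells, and both in 5 CTCs and 0 cultured cells.

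Summed by role and per kb, each class had a lower median over cells in CTCs than in culture in normalized counts, a scale on which the median log2 ratio of all genes was -1.81 when medians over cells were used. Effector sums were 0 to 33.01 normalized counts per kb in CTCs (median, 7.80) and 15.9 to 52.0 in culture (median, 29.9). Antiapoptotic sums had a median of 26.6 in CTCs and 62.4 in culture, and BH3-only sums of 73.7 and 117. The highest CTC had 1687 for the antiapoptotic sum, through BCL2A1, and 1432 for the BH3-only sum, through PMAIP1, against 76.7 and 168 in the highest cultured cell. The means of these 2 sums over CTCs were above culture, at 96.3 against 59.1 and 148 against 107.

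Members did not move as a block over the 37 CTCs. The highest Spearman correlation among the 6 members detected in at least 23 CTCs was that of MCL1 with PMAIP1, 0.49 (0.43 over the 29 CTCs without the s libraries), followed by MCL1 with BAX, 0.44 (0.27). BCL2L1 with BID was at -0.03, and BAX with BAK1 at 0.11. BCL2L1 and BID also followed the number of genes with reads, at 0.42 and 0.42 (0.48 and 0.30 without the s libraries), and the number of members detected did so at 0.45 (0.25). These are descriptions over cells that share mice, library type and depth, and carry no p.

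By the same measure, the protein-coding genes most like each widespread member were picked among 2893 detected in at least 80% of CTCs. They were KLC1 (0.75), LRRC8A (0.75) and VPS35 (0.73) for BCL2L1, and CDK9 (0.65), BMS1 (0.62) and SLTM (0.57) for MCL1. For BID they were TXNRD1 (0.68), NAA15 (0.67) and PNN (0.65), and for PMAIP1 TMEM160 (0.56), RHOB (0.53) and ITCH (0.52). As the highest of 2893 values each, they are high by selection.

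CTC 5549-6 combined extremes of several members. It had the highest MCL1 (433) and BAX (51.6) of all CTCs, PMAIP1 at 168, and no read of BCL2L1, BID or BAK1. It also had the highest TNFRSF10B (553), a death receptor for TRAIL, and BIRC3 (816), an NF-κB target, and the next to highest DDIT3 (1217), the stress-induced factor CHOP. This cell also had the highest sums of erythroid (15571) and neutrophil (573) markers of all CTCs, a leukocyte sum of 365 and VIM at 4195. S100A9 was at 568, LYZ at 128, TYROBP at 102 and PTPRC at 19.98. CSF3R was at 3.33, LTF at 1.67, and MPO, FCGR3B and MS4A1 at 0. The part of these markers in the pattern was not tested. CTC 5546-s4 was alike only in part, with the next to highest MCL1 (269) and BAX (48.8) and the highest PMAIP1 (3130), but with BCL2L1 at 243 and both TNFRSF10B and DDIT3 at 0. It had the highest CD14 (416) and CSF3R (27.7) of all CTCs, a leukocyte sum of 1390 and a neutrophil sum of 352, beside the highest VIM (20688). Of the neutrophil sum 324 was S100A9, while MPO, LTF and FCGR3B were at 0. Among the leukocyte markers TYROBP was at 67.9, PTPRC at 2.87, and LYZ and MS4A1 at 0. Of that leukocyte sum 904 was CD74, which cultured cells also expressed. The part of these markers was not tested either.

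Beyond the members, 74 further genes of cell death and anoikis are reported, of which 73 were measured and 60 had a larger mean of at least 8. Among the 60, the rule of size took 0 as lower and 0 as higher (5.31% and 0.0655% of all genes). All 5 mouse means lay below culture for 23 of the 60 and above for 1, FAS (60.3% and 1.04% of all genes). The median log2 ratio was -0.74, against -1.20 for all genes.

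Of the apoptosome, caspase and inhibitor genes reported, 10 were tested and 3 had all mouse means below culture. BIRC5 (survivin), a mitotic protein of the inhibitor of apoptosis family, had 0 to 1032 normalized counts in CTCs (median, 79.2) and 0 to 814 in culture, with a mean of mouse means of 143 ± 120 (SD, n = 5 mice) against 568. APAF1, the scaffold of the apoptosome, was low in both, at 2.20 ± 3.14 against 10.2. Their log2 ratios, -1.98 and -1.81, were the lowest of that list. BIRC3 (85.8 against 59.3) and XIAP (28.7 against 25.7), both inhibitors of apoptosis, had the largest ratios, 0.53 and 0.16. BIRC3 had an SD of 95.01 over the 5 mice, a CTC median of 11.4 and 2 mice above culture, and without CTC 5549-6, left out after its value was seen, its mean fell under that of the culture, to 46.2.

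The death receptor pathway had members at both ends. FADD, the adaptor that recruits caspase-8, was at 10.9 ± 10.6 (SD, n = 5 mice) against 70.1 in culture, and TNFRSF1A, a receptor for TNF, at 33.6 ± 12.1 against 150. FAS, a death receptor, was at 10.2 ± 3.97 against 4.23, with 4 of the 6 cultured cells at 0, one at 1.19 and one at 24.2, and the CTC median was 0. TNFRSF10B was at 102 ± 63.6 against 52.6, above culture in 4 of 5 mice, but its median over cells was 16.5 in CTCs and 40.6 in culture. In mouse 5549 this rested on CTC 5549-6, without which the mean of that mouse was 6.98 and 3 mice were above. Of the 9 genes tested, 4 had all mouse means below culture and 1 above.

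The matrix and anoikis survival list held integrins, focal adhesion kinases and adaptors, a growth factor receptor and other genes. Its median log2 ratio was -0.57 over 16 tested, with 5 below culture in all mice. BCAR1, an adaptor of focal adhesions, and ITGB4, an integrin chain for laminin, had the lowest ratios, -1.53 and -1.42. ITGA6, the partner of ITGB4, and PTK2, which encodes focal adhesion kinase, had the highest, 0.33 and 0.29.

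Among other relatives of the family 6 of 12 measured genes were tested, and 3 lay below culture in all mice. The mitophagy receptors BNIP3 and BNIP3L had log2 ratios of -1.36 and 0.23, and BCL2L12 had -1.32. Of the mitochondrial partners and regulators of MCL1 turnover, 6 were tested and 5 lay below culture in all mice, as did 60.3% of all genes. VDAC1, a pore of the outer membrane, was at 381 against 1128 in culture (log2 ratio, -1.56). MTCH2, a receptor for BID on that membrane, was at 212 against 498 (-1.23), and the median of all genes was -1.20.

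Of the 13 regulators tested, 3 lay below culture in all mice, among them AKT2, a survival kinase (2.15 against 11.2), and E2F1, a cell cycle transcription factor (24.0 against 66.9). DDIT3 had the largest ratio, 0.95, at 150 ± 134 (SD, n = 5 mice) against 77.2 in culture. Its CTCs ran from 0 to 2625 with a median of 16.1, against a median of 93.9 in culture. Without CTC 5549-6, left out after its value was seen, the mean of mouse 5549 was 8.39 and that of the 5 mice 89.9. The number of mice above culture then fell from 3 to 2.

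**Figure D5:**
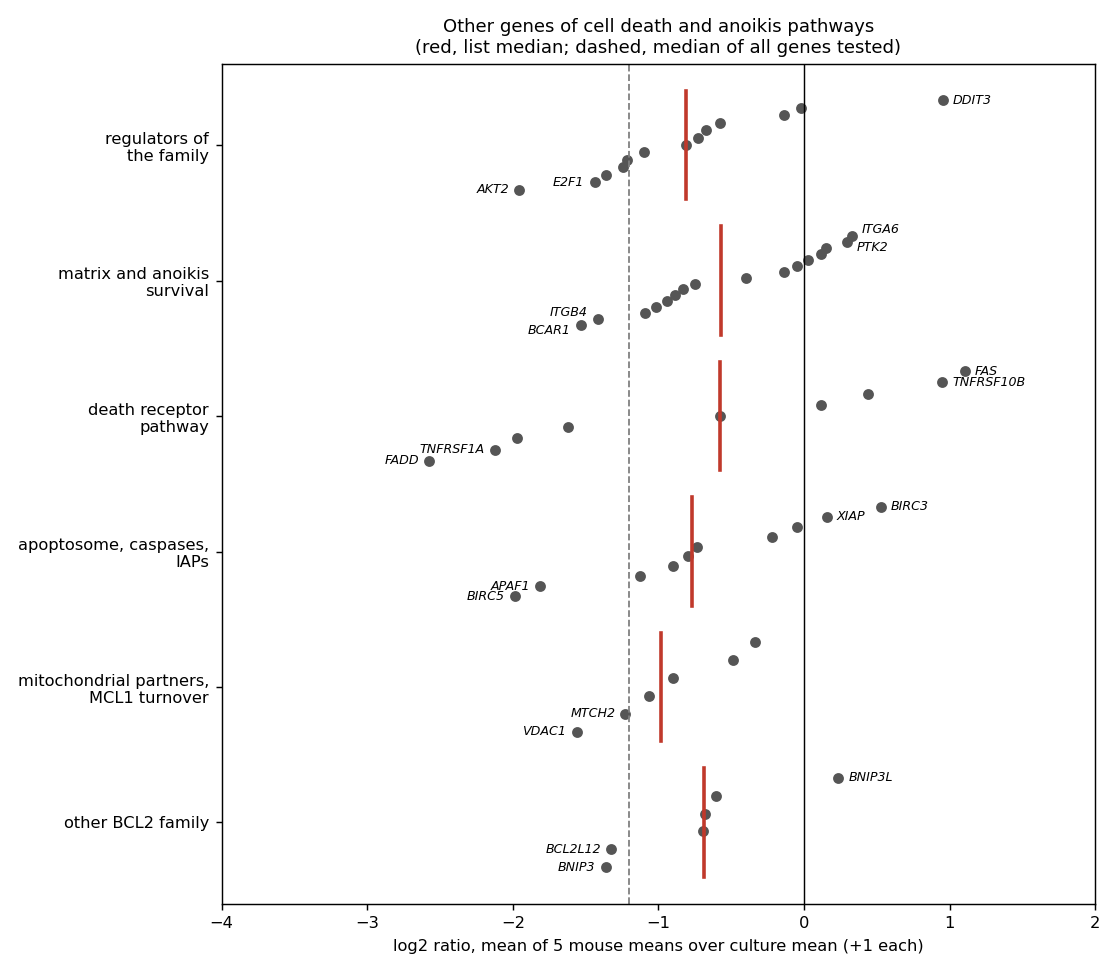
Each point is 1 gene with a larger mean of at least 8, placed by its log2 ratio of CTCs over culture and grouped by list, with the red bar at the median of the list and the dashed line at -1.20, the median of all genes tested. FADD lies farthest to the left at -2.57, and FAS, TNFRSF10B and DDIT3 farthest to the right.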

How the data were processed

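Single-cell libraries of 37 CTCs from 5 mice and of 6 cultured LM2 cells were analyzed, and 4 further labeled CTCs were not analyzed here. The authors aligned reads with STAR 2.7.10a to GRCh38, counted unique reads per gene without strand on GENCODE 38, and divided them by DESeq2 1.42.1 size factors, per the methods and the submitters' processing notes. The deposited values are this signal, which is a count divided by a size factor. In each cell 100% of values were whole multiples of the smallest (tolerance, 0.001), so reads were recovered for depth and count models. CTCs are from mouse blood, and alignment to a mouse genome is not given in the sources used here. GENCODE 44 gave names and lengths for 25684 genes.

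The members, the pathway and marker lists and the tests were chosen with earlier results of these data known. Some genes of the pathway lists are not reported here and are left out of the counts of those lists. Named genes are all members, list genes met by the rule of size and otherwise up to 2 with the largest ratio in each direction, and the 3 most correlated genes per member detected in at least 80% of CTCs. CTC 5549-6 and the other single cells were picked after their values were seen. Alternatives were fold, pseudocount, averaging, scaling, canonical transcript length and thinning to 469614 reads. Further ones were edgeR 4.0.16 (quasi-likelihood, Benjamini-Hochberg) and DESeq2 1.42.0 on summed reads, and leaving out mice, cells or the s libraries. Python 3.11.15, pandas 2.3.3, scipy 1.17.1 and R 4.3.3 were used. Of the steps, only the edgeR model was tested on simulated data.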

Additional observations from a re-analysis of the deposited data

Results flagged for a closer look

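In groups of 4 to 10 samples, 1 sample lay farther from the others than 95% limits for single outliers allow in 11 of the 45 groups of member values examined. Chance flags about 1 in 20 groups of normally distributed values. These counts are skewed, so the 11 of 45 cannot be set against that rate. Groups in which all but 1 value are 0 meet this limit by construction. Among mouse means these were BCL2A1 in mouse 5542 (585 normalized counts, the next mouse at 4.80), PMAIP1 in mouse 5546 (461, next 159), BAX in mouse 5549 (18.9, next 10.0), BCL2L11 in mouse 5545 (7.37, next 1.57) and BCL2 in mouse 5546 (0.0483, next 0). Among single CTCs of a mouse they were MCL1 in 5549-6 (433, next 28.3), BCL2A1 in 5545-3 (24.3, next 0), BCL2L11 in 5542-2 (6.00, next 0), BBC3 in 5542-4 (11.6, next 0) and BBC3 in 5549-5 (0.929, next 0). Among cultured cells it was BCL2 in LM-1 (9.95, next 0).

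BCL2L1 was flagged for a difference in direction between mice, which rested on 1 cell. Of the CTCs of mouse 5541 (mean, 288), 5541-1 was at 380 normalized counts. The other, 5541-5, was at 195.6 and so level with the culture mean of 195.2. All CTCs of mice 5542, 5545 and 5549 were below that mean, and this difference was not tested.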

How the results depend on the processing

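The number of members that met the rule of size, 0, became 1 (BAK1, lower) at 2-fold. The models, which call genes by adjusted p and take the spread of the mice for that of the culture, called 1 member (BCL2A1, whose ratio rests on 2 CTCs of mouse 5542) in edgeR without a filter on low counts. The count was 0 in the other 36 settings. The number of members detected in most CTCs, 6, was within 1.5 times in all settings, at 4 with a minimum of 8 normalized counts. The highest level per kb, 119 for BCL2A1, passed to PMAIP1 at 58.8 as the median over CTCs, 127 as the mean over CTCs and 66.3 without the highest CTC of each gene. Leaving out 1 mouse gave 92.2 (PMAIP1, without mouse 5542) to 149. Over all genes the rule took 487 as lower, 2298 at 2-fold, 144 with a pseudocount of 8, 137 in RPM, 134 after thinning and 1357 with medians over cells. edgeR called 0 genes, 20 higher and 7 lower without the filter on low counts, and DESeq2 called 14. Leaving out CTC 5545-6, CTC 5549-6 or the highest CTC of each gene was chosen after seeing the data. The cause of these changes was not tested. No paired analysis was possible because library numbers only name picked cells and are shared by chance between mice and culture. The cultured cells were taken as 1 culture without a known replicate. That culture, the 2 to 17 CTCs per mouse and reads without molecular identifiers limit the precision. An absent read in 1 cell does not show absence of a transcript.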
